A study of Arabidopsis thaliana with 9 samples.

Results

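Abscisic acid (ABA) is the plant hormone that closes stomata and switches on protective genes when tissue loses water. The genes described here are the 39 Arabidopsis loci for its synthesis, its breakdown and its core signalling chain. They were chosen by locus identifier from their known function, with earlier results of these data known, out of 32833 genes in the count table. They fall into 6 roles: 7 synthesis genes, 4 breakdown genes, 9 receptors, 9 clade A protein phosphatases (PP2Cs), 5 SnRK2 kinases and 5 bZIP transcription factors of the ABF and ABI5 group. Of the 39, 31 had enough counts to be tested and 8 did not.

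ABA is made from xanthophyll pigments. ABA1, the zeaxanthin epoxidase, prepares the pigments in the plastid, NCED enzymes cleave them in the rate-limiting step, and ABA2 and AAO3 finish the hormone in the cytosol. AAO3 needs a molybdenum cofactor that ABA3 completes, and CYP707A enzymes hydroxylate ABA to inactivate it. A receptor of the PYR/PYL family that has bound ABA blocks the PP2Cs, which otherwise hold the SnRK2 kinases inactive, and the freed kinases phosphorylate the ABF and ABI5 factors that bind ABA-responsive promoters.

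TINY is an AP2/ERF transcription factor, and the study set wild type (WT) beside a TINY overexpressor (TINYOE) and a triple mutant (tiny124). The genotype labels read BES1P::TINYOE, in the usual notation a transgene under the BES1 promoter, and tiny1tiny2tiny4. Each genotype gave 3 libraries from whole rosettes of plants grown for 4 weeks under 16 h of light and 8 h of dark, and the labels name no drought or ABA treatment. The libraries were made with QuantSeq, which reads 1 fragment near the 3′ end of each transcript. The labels do not say whether replicates were separate plants or pools, or how many transgenic lines were used, and a p-value therefore reflects only how far these libraries spread, possibly for technical reasons.

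The 9 libraries held 4917868 to 6070778 counts, of which the ABA genes took 0.0801% to 0.0946%. TINY itself stood at 4.06 ± 0.45 CPM (counts divided by TMM-scaled library sizes and set to a common total, SD, n = 3) in WT, 5.39 ± 0.762 in TINYOE (adjusted p = 0.343) and 0.706 ± 0.132 in tiny124 (edgeR adjusted p = 0.00168 against WT), so no rise of TINY was called in the overexpressor. Reads near the 3′ end miss a transgene whose transcript ends in another sequence, which the labels do not describe. WT replicate 2 stood apart from the other WT libraries: on the first principal component of all tested genes (42.3% of the variance) it lay at 0.51, against -55.78 and -32.64 for the other WT libraries and 41.09 to 55.69 for TINYOE. The leaf markers RBCS1A, CAB1 and CA1 summed to 18965 to 23941 CPM in WT, 16145 to 17782 in TINYOE and 20909 to 22699 in tiny124, so every TINYOE library was lower. Summed flower markers (AP1, AP3, PI and AG) were 14.4 to 26.2 CPM in WT, 22.1 to 54.7 in TINYOE and 23.2 to 26.1 in tiny124. In TINYOE against WT, PI was higher (log2 fold change 0.96, edgeR adjusted p = 0.0282). AP1, AG and AP3 gave 1.33, 1.7 and 0.96 (adjusted p = 0.0509, 0.0524 and 0.107). Guard cell markers (FAMA, MYB60, KAT1, HT1) summed to 39.8 to 56.2, 37.5 to 42.5 and 41.5 to 50.7 CPM. FAMA was lower in every TINYOE library (22.4 to 23.6 CPM, against 23.7 to 40.1 in WT, adjusted p = 0.09), while MYB60, KAT1 and HT1 overlapped. Root markers summed to 21.6 to 26.9 CPM with PLT1 and RHD6 at or near 0, and seed markers to at most 1.37 CPM with SESA1 at 0 in every library. The part of these tissue markers in the differences below was not tested.

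Few ABA genes differed between genotypes, and their share was close to that of the genome as a whole. Against WT, TINYOE had 4 of 31 tested ABA genes higher (PYL5, SNRK2.2, ABF3 and NCED3) and 1 lower (ABA1). That is 16.1%, beside 15.6% of all 16434 tested genes (8.15% higher and 7.44% lower). A gene is called where edgeR's quasi-likelihood test gave a Benjamini-Hochberg adjusted p under 0.05 over all tested genes. The median log2 fold change of the 31 was 0.02, and of all genes 0. In whole rosettes, fewer cells of a type and less RNA per cell cannot be told apart.

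In tiny124 against WT, 0 of 31 ABA genes were called by edgeR, beside 2.5% of all genes. At an unadjusted p under 0.05 there were 7 (22.6%, beside 11.6% of all genes), and DESeq2 called 1, PYL5. The median was 0.02, against -0.01 for all genes. In TINYOE against tiny124, 2 of 31 were higher (SNRK2.8 and ABA2) and 1 was lower (CYP707A3), together 9.68% beside 9.85% of all genes (5.12% higher and 4.73% lower). Both comparisons with WT share the WT libraries.

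The counts moved with single libraries, as did the counts over all genes. Without WT replicate 2, 8 of 31 ABA genes were called in TINYOE against WT (the 5 above with PYL8, SNRK2.3 and SNRK2.8), or 25.8%, beside 24% of all genes. In the same fit, 2 were called in tiny124 against WT (PYL5 and SNRK2.3, 6.45% beside 3.12%) and 6 in TINYOE against tiny124 (19.4% beside 13.1%). Without TINYOE replicate 2, ABA1 alone was called in TINYOE against WT (3.23%, beside 9.91% of all genes). The ABA genes whose 3 TINYOE values lay wholly above or below the 3 WT values numbered 8 of 31 (25.8%), beside 31.4% of all genes. For tiny124 against WT these were 9 of 31 (29%, beside 15.8%), and for TINYOE against tiny124 12 of 31 (38.7%, beside 30.8%).

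**Figure D1:**
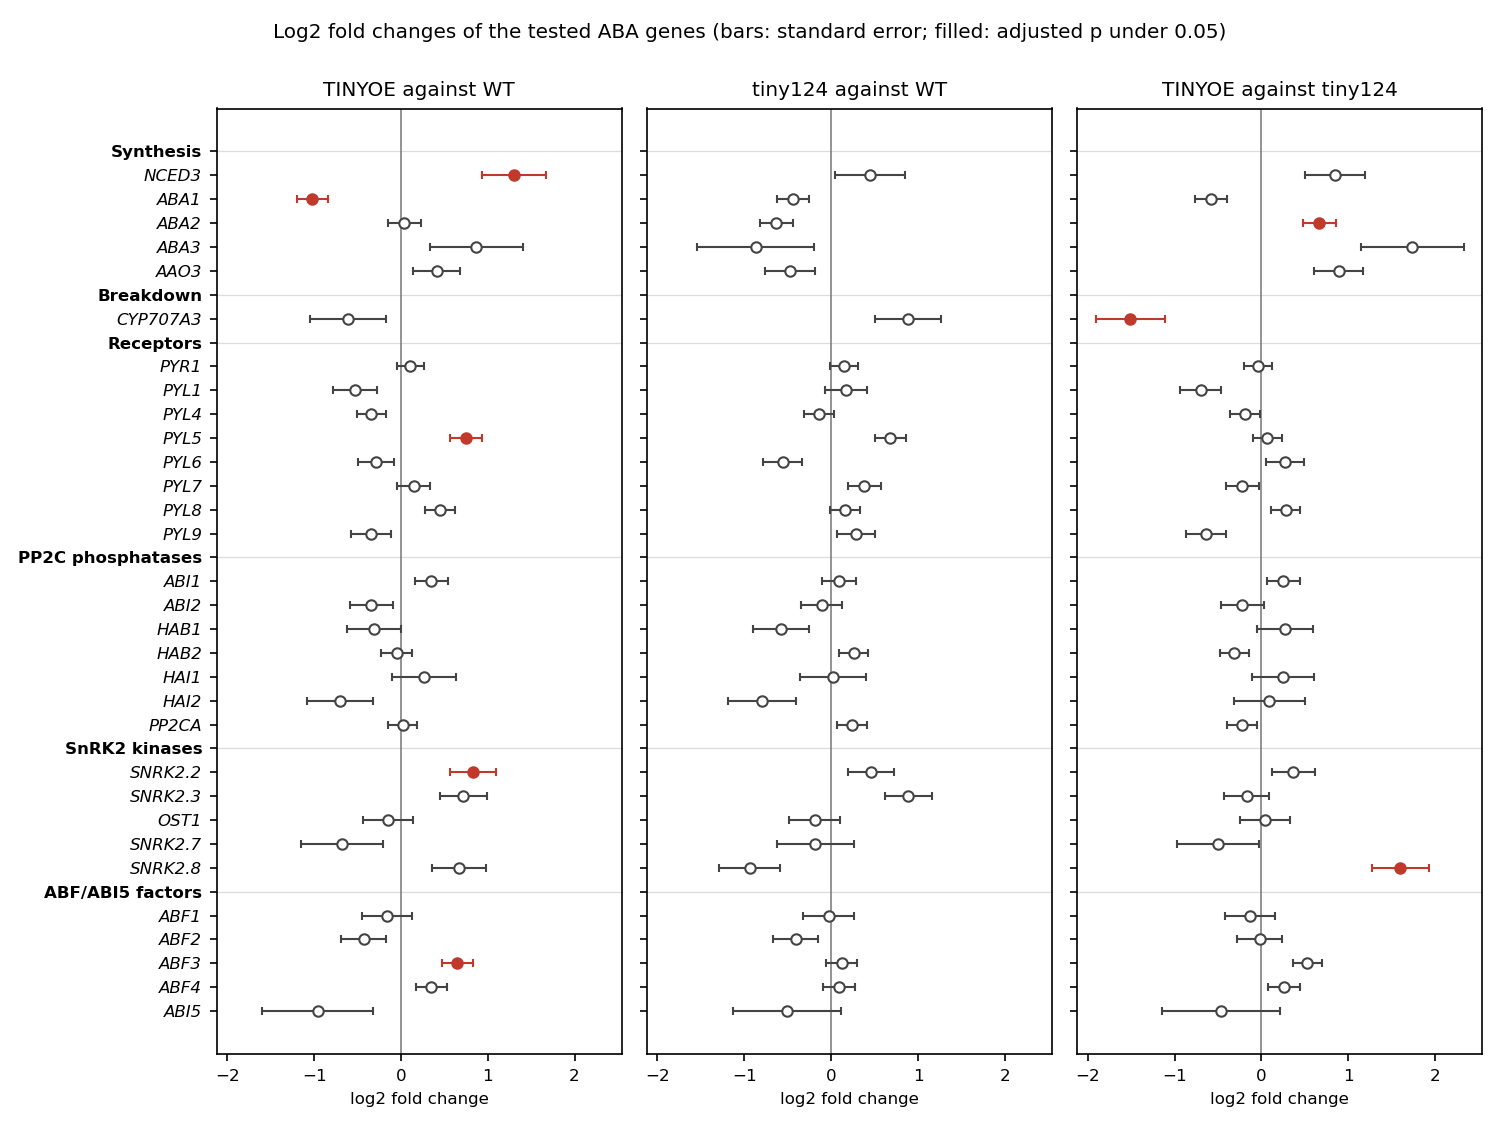
Log2 fold change with its standard error (bars) for each of the 31 tested ABA genes, grouped by role, in the 3 comparisons (filled points are called at an adjusted p under 0.05). The called genes are 5 in TINYOE against WT, 0 in tiny124 against WT and 3 in TINYOE against tiny124.

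**Figure D2:**
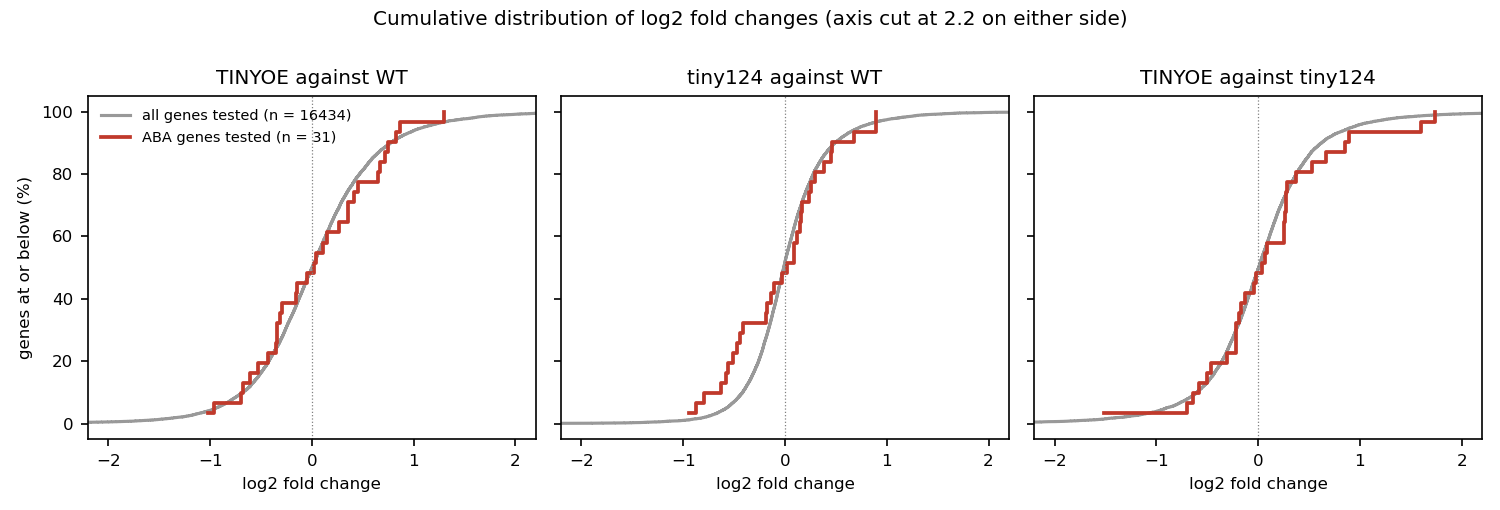
Cumulative distribution of the log2 fold changes of all 16434 tested genes and of the 31 tested ABA genes, in the 3 comparisons. The ABA genes lie within the body of the distribution, with medians of 0.02, 0.02 and 0.04.

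Among the synthesis genes, the ABA1 transcript was lower in TINYOE than in WT and the NCED3 transcript was higher. The NCED3 call depended on single libraries. ABA1 (AT5G67030) counted 64.2, 51.9 and 55 CPM in WT replicates 1 to 3, 30, 22.8 and 31.6 in TINYOE, against 36, 47 and 43.2 in tiny124. All TINYOE libraries lay below all tiny124 libraries, and all tiny124 libraries below all WT libraries. The TINYOE level was 2.03-fold lower than WT (log2 fold change -1.02 ± 0.18 SE, edgeR adjusted p = 0.0015). ABA1 was called in all 15 alternative settings of that comparison, with log2 fold changes of -1.11 to -0.89. The tiny124 difference from WT was -0.44 ± 0.18 on the log2 scale (adjusted p = 0.321), and TINYOE against tiny124 gave -0.58 ± 0.18 (adjusted p = 0.0586). The summed leaf markers were also lower in every TINYOE library than in any WT library, though CAB1 alone overlapped (7020 to 8192 CPM in TINYOE, 7413 to 9301 in WT). In tiny124 the leaf marker sum (20909 to 22699 CPM) lay within the WT range (18965 to 23941 CPM), and the ABA1 difference from WT was not called. The part of leaf content in the ABA1 level was not tested.

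NCED3 (AT3G14440), the dioxygenase that drought induces in leaves, counted 2.28, 3.6 and 5.13 CPM in WT, 10.2, 8.94 and 8.2 in TINYOE, with 8.47, 2.48 and 4.36 in tiny124. Every TINYOE library was above every WT library, while tiny124 replicate 1 reached the TINYOE range and the other tiny124 libraries stayed within the WT range. The rise in TINYOE was 2.47-fold (log2 1.30 ± 0.37 SE, edgeR adjusted p = 0.0253). It rests on 57 counts in WT and 161 in TINYOE. The call was lost without WT replicate 1 (log2 1.06, adjusted p = 0.0836) and without TINYOE replicate 1, 2 or 3 (adjusted p = 0.0796, 0.0622 and 0.0504). TINYOE against tiny124 gave log2 0.85 ± 0.35 (adjusted p = 0.151), and 1.42 without tiny124 replicate 1 (0.0281). The flower marker sum was 22.1 to 54.7 CPM in TINYOE, lowest in replicate 1, against 14.4 to 26.2 CPM in WT. Of these markers, PI was called higher in TINYOE than in WT (edgeR adjusted p = 0.0282). AP1 was higher in every TINYOE library (2.05 to 4.38 CPM, against 0.949 to 1.28 in WT) but was not called. The part of flower tissue in the NCED3 level was not tested.

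ABA2 (AT1G52340), the xanthoxin dehydrogenase, differed between TINYOE and tiny124. Its counts were 17.5, 20.5 and 17.4 CPM in WT, 19.1, 17.2 and 20.7 in TINYOE, against 12.6, 13.2 and 9.81 in tiny124. WT and TINYOE overlapped, and every tiny124 library was below them. TINYOE was 1.6-fold above tiny124 (log2 0.67 ± 0.19 SE, edgeR adjusted p = 0.0349), and tiny124 against WT gave -0.63 ± 0.19 (adjusted p = 0.122). Leaving out TINYOE replicate 1, 2 or 3 gave adjusted p = 0.0882, 0.0584 and 0.123, and leaving out tiny124 replicate 1, 2 or 3 gave 0.0861, 0.0547 and 0.17, so the call was lost without any of these libraries. Its locus overlaps AT1G52330 in the annotation, a gene with at most 0.575 CPM.

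AAO3, the abscisic aldehyde oxidase, had 3.8, 5.08 and 4.03 CPM in WT, 6.75, 4.38 and 5.98 in TINYOE, with 3.01, 3.14 and 3.09 in tiny124. Its difference between TINYOE and tiny124 missed the threshold (log2 0.89 ± 0.28 SE, edgeR adjusted p = 0.056). ABA3, the cofactor sulfurase, ranged from 0.165 to 2.56 CPM over all libraries and gave 1.74 ± 0.59 (adjusted p = 0.0757). In TINYOE against tiny124, all 5 tested synthesis genes had an unadjusted edgeR p under 0.05, against 23.2% of all tested genes. Of the 5, 4 were above 0 and ABA1 below, and ABA2 alone was called. Over the 31 tested ABA genes the share was 32.3%. In TINYOE and tiny124 against WT it was 40% of the synthesis genes each time, beside 30.4% and 11.6% of all genes. The ABA genes were chosen with earlier results of these data known, so these shares cannot measure an excess.

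The other NCED genes were near the limit of the libraries. NCED5 gave 5 counts over the WT libraries, 3 over TINYOE and 3 over tiny124. NCED9, known from seeds, gave 2 counts in WT and 0 in TINYOE and tiny124, where 3 counts over the group, or 0.17 and 0.178 CPM, are the limit that a count of 0 allows. Summed over the 7 synthesis genes, and not tested, the level was 85.1 ± 3.85 CPM (SD, n = 3) in WT, 64.1 ± 7.33 in TINYOE and 62.9 ± 2.82 in tiny124. ABA1 is the largest term of this sum, and the WT libraries (82.1 to 89.4 CPM) did not overlap the other groups (55.7 to 69.2 and 61 to 66.1 CPM).

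Of the 4 breakdown genes, which all encode ABA 8′-hydroxylases, CYP707A3 (AT5G45340) was the one with enough counts to test. It had 4.18, 1.27 and 3.85 CPM in WT, 1.48, 2.98 and 1.71 in TINYOE, against 7.16, 4.13 and 6.36 in tiny124. All TINYOE libraries were below all tiny124 libraries, and WT overlapped both, with its replicate 2 the lowest of all 9 libraries. TINYOE was 2.84-fold below tiny124 (log2 -1.51 ± 0.40 SE, edgeR adjusted p = 0.0244). Neither genotype was called against WT (log2 -0.61 ± 0.44 with adjusted p = 0.367 in TINYOE, 0.89 ± 0.38 with 0.355 in tiny124). The call against tiny124 was lost without TINYOE replicate 1 or 3 (adjusted p = 0.102 and 0.1) and without tiny124 replicate 1 or 3 (0.105 and 0.0851).

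CYP707A1, which acts in guard cells among other tissues, gave 11, 8 and 8 counts over the WT, TINYOE and tiny124 libraries. CYP707A2, best known from seeds, gave 17, 13 and 7, and CYP707A4 gave 18, 5 and 9. In a fit with no filter on low counts, 0 of the 8 sparse ABA genes were called, and the lowest adjusted p was 0.115, for CYP707A4 in TINYOE against WT.

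**Figure D3:**
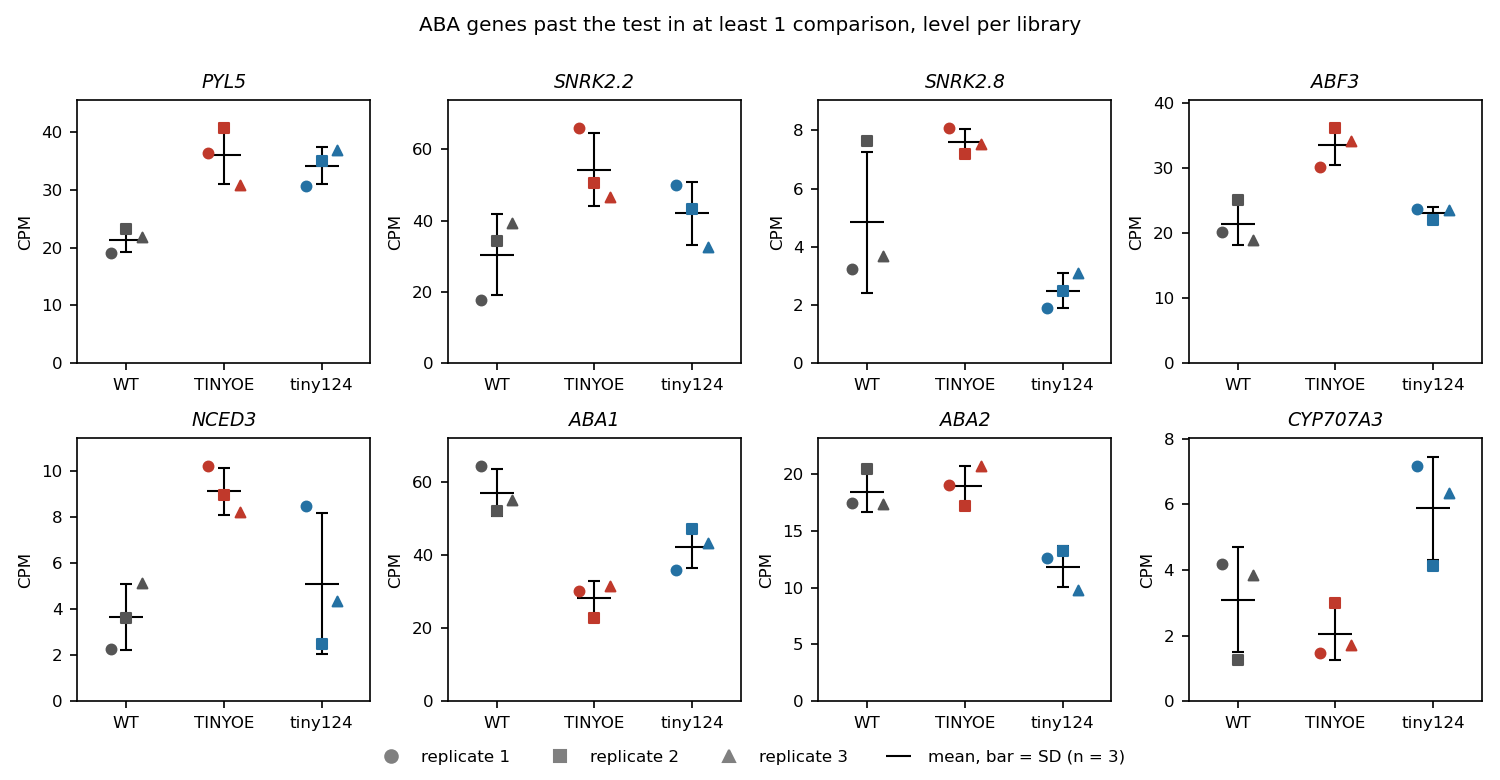
CPM in each of the 9 libraries (points) with the mean and SD of each genotype (bars) for the 8 ABA genes called in at least 1 comparison. ABA1 is lower in every TINYOE library than in any WT library, and SNRK2.8 and ABA2 are lower in every tiny124 library than in any TINYOE library.

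Of the 9 receptors, 8 were tested, and PYL5 rose in TINYOE. PYL5 (AT5G05440), a monomeric receptor, counted 19, 23.3 and 21.8 CPM in WT, 36.4, 40.7 and 30.9 in TINYOE, with 30.7, 35.1 and 36.9 in tiny124. Every library of both TINY genotypes was above every WT library, and the TINY genotypes overlapped each other. The rise in TINYOE was 1.68-fold (log2 0.75 ± 0.18 SE, edgeR adjusted p = 0.00938), and it missed the threshold without TINYOE replicate 2 (0.66, adjusted p = 0.0541). In tiny124 the difference from WT was 0.68 ± 0.18 with an adjusted p of 0.0597. That value ranged from 0.037 to 0.181 over the alternatives and passed with DESeq2, with a filter at 5 CPM and without WT replicate 2. In the authors' deposited table, which has no WT replicate 2, it is 0.03. Between TINYOE and tiny124 the PYL5 difference was 0.07 ± 0.17.

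PYL8, a receptor studied mainly in roots, had 48.2, 63.1 and 50.2 CPM in WT and 71, 79.1 and 70.2 in TINYOE. Every TINYOE value was higher, but the difference missed the threshold (log2 0.45 ± 0.17 SE, edgeR adjusted p = 0.0836). The authors' deposited table gives PYL8 an adjusted p of 0.00224. Without WT replicate 2 the fit here called PYL8 as well.

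The dimeric receptor PYL1 and the monomeric PYL9 were lower in TINYOE than in tiny124 by amounts short of the threshold (log2 -0.70 ± 0.24 with edgeR adjusted p = 0.0818, and -0.64 ± 0.23 with 0.0896). PYL4, a monomeric receptor, was measured with the most counts of the ABA genes. It stood at 342 to 439 CPM in WT, 262 to 348 in TINYOE and 304 to 362 in tiny124, and its log2 difference in TINYOE was -0.34 ± 0.17 (adjusted p = 0.183). PYR1, PYL6 and PYL7 had log2 differences between -0.56 and 0.38 in the 3 comparisons, with no call. PYL2 gave 17, 21 and 27 counts and was not tested. The receptor sum was 570 ± 51.2 CPM (SD, n = 3) in WT, 525 ± 63.4 in TINYOE and 567 ± 33 in tiny124.

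The PP2Cs, the brake of the chain and themselves genes that ABA induces, gave no call. None of the 7 tested passed the threshold in any comparison by edgeR or DESeq2, and none had an unadjusted p under 0.05, where 30.4%, 11.6% and 23.2% of all genes had one. Their log2 differences ran from -0.70 to 0.35 in TINYOE against WT, -0.80 to 0.26 in tiny124 against WT and -0.31 to 0.27 in TINYOE against tiny124. PP2CA had 18.9 to 19.7 CPM in WT, 18.8 to 20.8 in TINYOE and 20 to 24.5 in tiny124. ABI1, the phosphatase whose dominant mutation makes plants ABA insensitive, had 12.3 to 16.7 CPM in WT and 15.8 to 20.1 in TINYOE (log2 0.35 ± 0.19, adjusted p = 0.242). The strongly ABA-induced phosphatases HAI1 and HAI2 had 0.27 ± 0.37 and -0.70 ± 0.38 in TINYOE against WT (adjusted p = 0.669 and 0.229). In TINYOE against WT, 5 of the 7 had a 95% interval inside a 2-fold change in either direction, beside 57.1% of all genes. HAI3 gave 2 counts in TINYOE and 0 elsewhere, and AHG1, which acts in seeds, gave 2 in tiny124 and 0 elsewhere.

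The SnRK2 kinases held a called rise in TINYOE, in SNRK2.2, and a called difference between TINYOE and tiny124, in SNRK2.8. SNRK2.2 (AT3G50500), which acts with SNRK2.3 and OST1 as the main ABA-activated kinases, counted 17.7, 34.3 and 39.4 CPM in WT, 65.9, 50.5 and 46.5 in TINYOE, against 50.1, 43.3 and 32.7 in tiny124. TINYOE lay above WT in every library, and tiny124 overlapped both. The rise was 1.78-fold (log2 0.83 ± 0.26 SE, edgeR adjusted p = 0.0357), and the authors' deposited table gives an adjusted p of 0.124. WT replicate 1 was low at 17.7 CPM, and without it the log2 value was 0.57 (adjusted p = 0.105). The call was also lost without TINYOE replicate 1, 2 or 3 (adjusted p = 0.145, 0.0707 and 0.0516) and with the 6 compared libraries alone (0.0504).

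SNRK2.3 had 4.75, 10.6 and 8.43 CPM in WT, 15.3, 13.7 and 10.1 in TINYOE, with 17.5, 14.2 and 12.2 in tiny124. Every tiny124 library was above every WT library, and TINYOE overlapped WT through its replicate 3. The differences from WT missed the threshold in TINYOE (log2 0.72 ± 0.27 SE, edgeR adjusted p = 0.0832) and in tiny124 (0.89 ± 0.27, adjusted p = 0.12), and passed in both without WT replicate 2. The authors' deposited table gives adjusted p of 0.0195 and 0.0191.

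SNRK2.8 (AT1G78290), a kinase of the neighbouring subclass that ABA activates weakly, counted 3.23, 7.62 and 3.67 CPM in WT, 8.07, 7.19 and 7.52 in TINYOE, against 1.88, 2.48 and 3.09 in tiny124. TINYOE was 3.03-fold above tiny124 (log2 1.60 ± 0.33 SE, edgeR adjusted p = 0.00536) and stayed called in all 15 alternative settings, between 1.44 and 1.78. Every tiny124 library was below every WT library (log2 -0.94 ± 0.35, adjusted p = 0.259). WT replicate 2 reached the TINYOE range. TINYOE against WT gave 0.67 ± 0.31 (adjusted p = 0.157), and 1.14 without WT replicate 2 (adjusted p = 0.0115). The authors' deposited table gives SNRK2.8 an adjusted p of 0.0178 there.

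SNRK2.8 lies near the end of chromosome 1, and 4 tested genes separate it from AT1G78410, where a run of 193 tested genes with a median log2 fold change of 0.92 in TINYOE against WT begins. SNRK2.8 lies outside this run, and the part of its position in its level was not tested. It also overlaps AT1G78280 in the annotation, which gave -0.48 in TINYOE against tiny124 (adjusted p = 0.177), and the sources used here do not say whether counting used strand.

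OST1, the kinase that acts in guard cells in stomatal closure, had 4.87 to 9.3 CPM in WT, 5.6 to 8.2 in TINYOE and 4.33 to 7.77 in tiny124. These ranges overlapped throughout, with log2 differences from WT of -0.15 ± 0.29 and -0.19 ± 0.29 (edgeR adjusted p = 0.759 and 0.883). SNRK2.7 was sparse, with 0.494 to 1.91 CPM. The kinase sum was 52.3 ± 13.7 CPM (SD, n = 3) in WT, 82.6 ± 11.4 in TINYOE and 67.1 ± 9.34 in tiny124. The TINYOE sums (73.3 to 95.3 CPM) lay above the WT sums (36.5 to 61 CPM), and SNRK2.2 is the largest term in them.

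**Figure D4:**
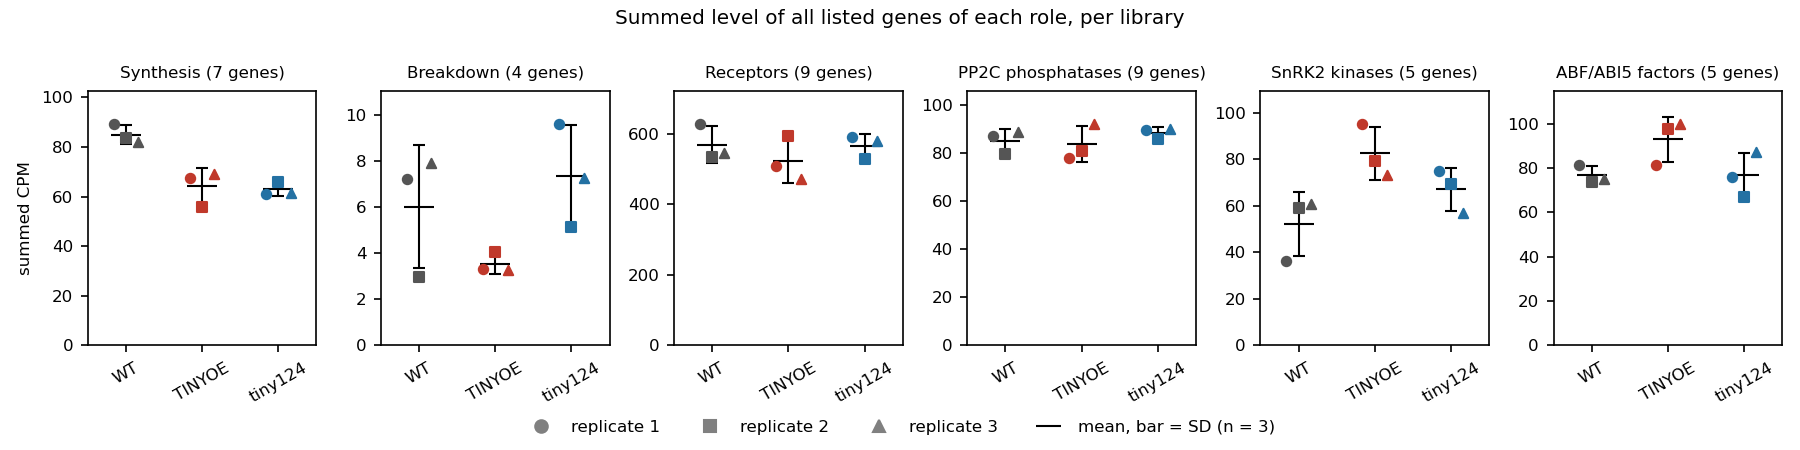
Summed CPM of the genes of each of the 6 roles in the 9 libraries (points) with the mean and SD per genotype (bars). The synthesis sum is higher in every WT library than in the other genotypes, the kinase sum is higher in every TINYOE library than in any WT library, and the PP2C sums overlap.

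Of the 5 bZIP factors, ABF3 rose in TINYOE. ABF3 (AT4G34000), an ABA- and drought-induced activator of ABA-responsive promoters, counted 20.1, 25 and 18.9 CPM in WT, 30.1, 36.1 and 34.2 in TINYOE, with 23.7, 22 and 23.6 in tiny124. TINYOE lay above all other libraries, and WT and tiny124 overlapped. The rise was 1.57-fold over WT (log2 0.65 ± 0.18 SE, edgeR adjusted p = 0.0194), and TINYOE against tiny124 gave 0.53 ± 0.17 (adjusted p = 0.0662). The call over WT was lost without WT replicate 1 or 3 (adjusted p = 0.0513 and 0.0901) and without TINYOE replicate 2 or 3 (0.0804 and 0.0587). ABF3 overlaps DJ1C in the annotation, which gave -0.47 in TINYOE against WT (adjusted p = 0.275).

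ABF4 had 29.4 to 38.4 CPM in WT, 40.7 to 45.3 in TINYOE and 29.4 to 42.1 in tiny124. Its TINYOE libraries lay above its WT libraries, but the difference missed the threshold (log2 0.35 ± 0.18 SE, edgeR adjusted p = 0.205). ABF1 and ABF2 overlapped between TINYOE and WT (log2 -0.16 ± 0.29 and -0.43 ± 0.26). ABI5, known best from seed germination, was sparse at 0.329 to 2.75 CPM and gave -0.96 ± 0.64 (adjusted p = 0.336).

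Around the core chain, 50 further ABA genes were listed by role, and 34 were tested. They were 5 other receptors, 5 other SnRK2 kinases, 9 other factors, 5 precursor enzymes, 8 transport and conjugation genes, 12 reporters of ABA response and 6 guard cell effectors. In TINYOE against WT, 3 were higher and 3 lower, or 17.6% of those tested, beside 15.6% of all genes. In tiny124 against WT, 3 were higher and 0 lower (8.82%, beside 2.5%). In TINYOE against tiny124, 3 were higher and 5 lower (23.5%, beside 9.85%). These lists were chosen with earlier results of these data known, so their shares cannot measure an excess over all genes. Of the precursor enzymes, 0 of the 3 tested were called in any comparison by edgeR or DESeq2, with 0 at an unadjusted p under 0.05, and the same held for the 4 tested other kinases. None of the 5 other receptors had enough counts.

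The transport and conjugation genes held the largest fold difference of the 34 tested. BGLU18 (AT1G52400), a beta-glucosidase that frees ABA from its stored glucose ester, counted 341, 208 and 357 CPM in WT, 47.7, 58.2 and 41.2 in TINYOE, against 781, 638 and 757 in tiny124. The 3 genotypes did not overlap. BGLU18 was 6.16-fold lower in TINYOE than in WT (log2 -2.62 ± 0.22 SE, edgeR adjusted p = 3.5e-06) and 2.4-fold higher in tiny124 than in WT (1.26 ± 0.20, adjusted p = 0.00277). It was 14.8-fold lower in TINYOE than in tiny124 (-3.89 ± 0.23, adjusted p = 4.52e-08). The authors' deposited table gives the tiny124 difference an adjusted p of 0.093.

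UGT71B6 (AT3G21780), a glucosyltransferase that makes the glucose ester, moved the other way in TINYOE. It counted 1.9, 3.39 and 1.83 CPM in WT, 6.42, 7.89 and 9.57 in TINYOE, with 3.01, 2.48 and 3.09 in tiny124. TINYOE was above all other libraries, 3.37-fold over WT (log2 1.75 ± 0.31 SE, edgeR adjusted p = 0.00119) and 1.47 ± 0.29 over tiny124 on the log2 scale (adjusted p = 0.00405). UGT71C5, another ABA glucosyltransferase, had 2.47, 22 and 11.9 CPM in WT and 22.1 to 30.6 in TINYOE (log2 1.18 ± 0.44, adjusted p = 0.0777). UGT71C5 passed the threshold in 2 of 15 alternatives, without WT replicate 2 (1.92, adjusted p = 0.00204) and with no filter on low counts (1.18, 8.42e-06). In the other 13, among them the fit without WT replicate 1, it was not called. Over the 15 the log2 value ran from 0.7 to 1.92, with an adjusted p of up to 0.27.

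Of the other factors, AFP3 was called. AFP3 (AT3G29575), of the family of ABI5-binding proteins that dampen ABA response, counted 4.75, 5.72 and 6.05 CPM in WT, 13.7, 8.94 and 11.1 in TINYOE, against 6.78, 6.61 and 4.9 in tiny124. TINYOE was above all other libraries (log2 1.03 ± 0.24 SE over WT, edgeR adjusted p = 0.00938, and 0.88 ± 0.24 over tiny124, adjusted p = 0.0271). Without TINYOE replicate 1 the adjusted p was 0.0511 over WT and 0.129 over tiny124. The call over tiny124 was also lost without TINYOE replicate 3 (0.0717) and without tiny124 replicate 1, 2 or 3 (0.0607, 0.0569 and 0.129).

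The reporters of ABA response did not move as a block. Of the 11 tested, 6 had a log2 difference above 0 in TINYOE against WT and 5 below. An unadjusted edgeR p under 0.05 was reached there by 8 (72.7%, beside 30.4% of all genes). The TINYOE and WT libraries did not overlap in 7 (63.6%, beside 31.4%). In TINYOE against WT, the bZIP gene GBF3 was higher (3.04, 4.45 and 4.03 CPM in WT, 8.23, 7.71 and 6.49 in TINYOE, log2 0.96 ± 0.28 SE, edgeR adjusted p = 0.0269), a call lost without WT replicate 1 (0.0974) or 3 (0.0687) and without TINYOE replicate 1 (0.0889) or 2 (0.0756). RD20, a caleosin, and RD22, a dehydration-induced BURP protein, were lower. RD20 had 30.9 to 46.9 CPM in WT against 8.76 to 10.5 in TINYOE, and RD22 374 to 443 against 178 to 217 (log2 -2.06 ± 0.21 and -0.99 ± 0.16 SE, edgeR adjusted p = 1.15e-05 and 0.000471). Both were also lower in TINYOE than in tiny124 (-2.40 ± 0.20 and -0.73 ± 0.15, adjusted p = 3.48e-06 and 0.00603). The classical reporters RD29A and RAB18 overlapped between TINYOE and WT (log2 -0.30 ± 0.19 and 0.04 ± 0.20, adjusted p = 0.307 and 0.909). HB12, NAP and RD29B were higher in every TINYOE library but missed the threshold (log2 0.66 ± 0.22, 0.49 ± 0.19 and 1.48 ± 0.54, edgeR adjusted p = 0.052, 0.0855 and 0.0748). HB7 leaned lower, with overlap (-0.54 ± 0.24, adjusted p = 0.147).

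RD26 and RD29B showed different orders of the genotypes. RD26 (AT4G27410), a NAC factor that drought and ABA induce, counted 31.7, 29.2 and 26.2 CPM in WT, 32.3, 44.9 and 50.6 in TINYOE, with 72.7, 74.7 and 72.8 in tiny124. It was higher in tiny124 than in WT (log2 1.34 ± 0.19 SE, edgeR adjusted p = 0.000848) and lower in TINYOE than in tiny124 (-0.79 ± 0.18, adjusted p = 0.0102, or 0.0578 without TINYOE replicate 1). Its log2 difference between TINYOE and WT was 0.55 ± 0.19 (adjusted p = 0.055), and 0.72 without TINYOE replicate 1 (0.0224). RD29B, whose promoter carries ABA-responsive elements, had 1.71, 1.48 and 1.1 CPM in WT, 5.1, 3.33 and 3.59 in TINYOE, against 1.69, 0 and 0.182 in tiny124. It was higher in TINYOE than in tiny124 (log2 2.7 ± 0.62, adjusted p = 0.0101, or 0.0583 without tiny124 replicate 3), a fitted value that rests on very few tiny124 counts.

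Of the guard cell effectors, RBOHD, an NADPH oxidase that also acts in immunity, counted 4.94, 3.18 and 5.87 CPM in WT, 5.1, 4.03 and 4.44 in TINYOE, with 10.7, 9.1 and 10.2 in tiny124. All tiny124 libraries were above all others. RBOHD was higher in tiny124 than in WT (log2 1.09 ± 0.25 SE, edgeR adjusted p = 0.0314) and lower in TINYOE than in tiny124 (-1.14 ± 0.25, adjusted p = 0.00803). The call over WT was lost without WT replicate 1 or 2 (0.0568 and 0.0786) and without tiny124 replicate 1, 2 or 3 (0.143, 0.0672 and 0.0882), and with the 6 compared libraries alone (0.0617). KAT1 and RBOHF were not called, and SLAC1, KAT2 and HT1 had too few counts to test. The summed guard cell markers overlapped between tiny124 and WT. Among them, KAT1 was lower in every tiny124 library (9.6 to 11.6 CPM, against 12.1 to 13.7 in WT, edgeR adjusted p = 0.601). FAMA, MYB60 and HT1 overlapped between tiny124 and WT. Their means were 32.5, 2.31 and 1.5 CPM in tiny124, against 32.7, 2.16 and 0.98 in WT. The part of guard cells in the RBOHD level was not tested.

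**Figure D5:**
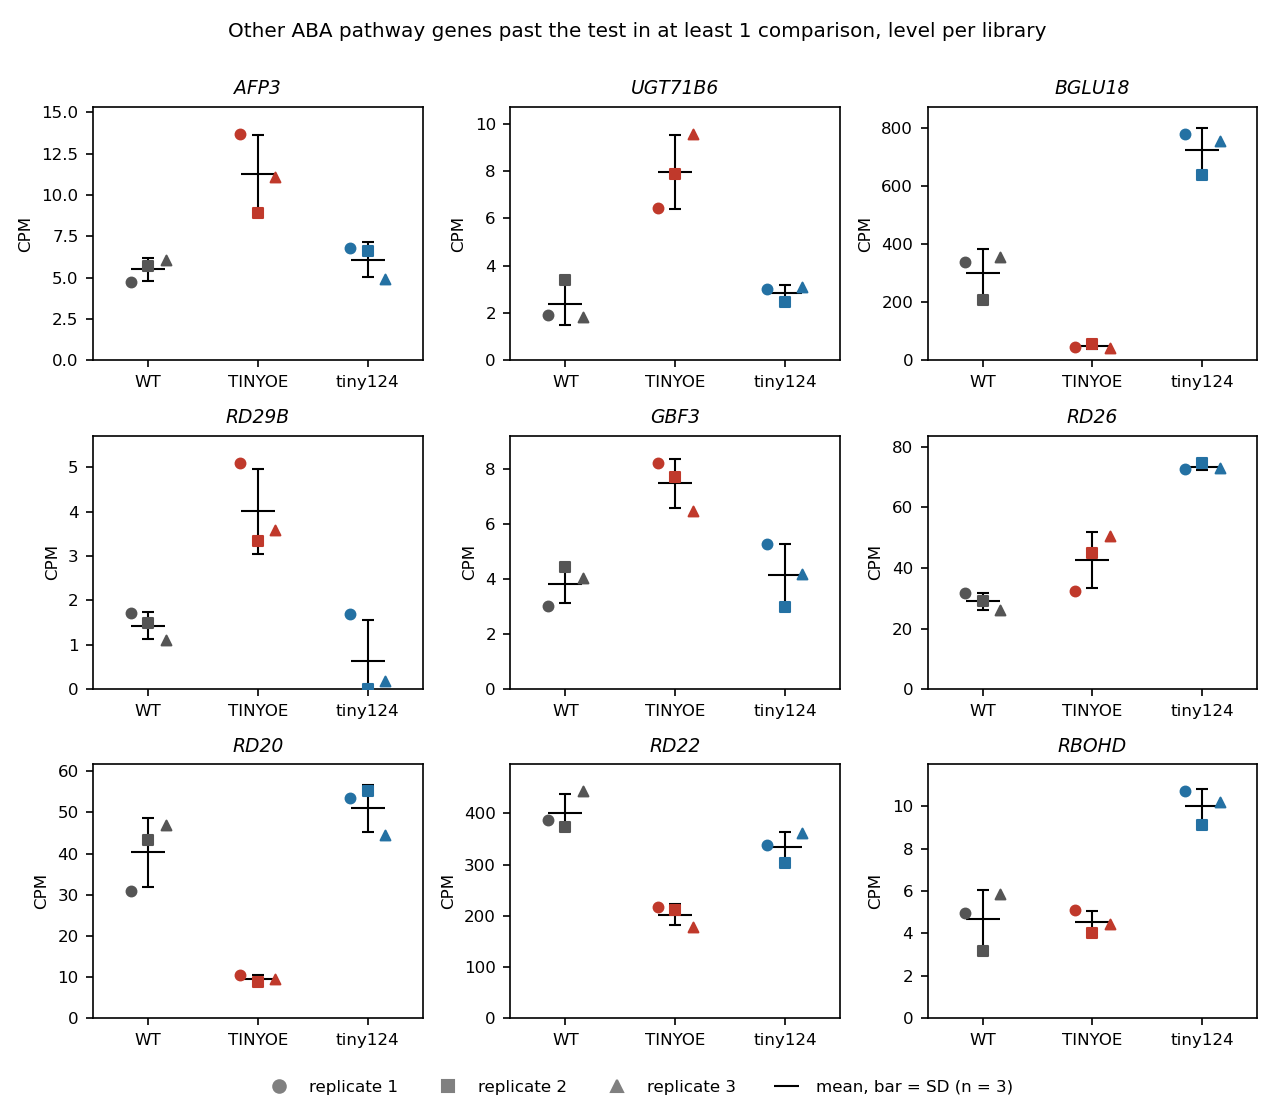
CPM in each of the 9 libraries (points) with the mean and SD per genotype (bars) for the 9 further ABA genes called in at least 1 comparison. BGLU18 is lowest in TINYOE and highest in tiny124, RD26 and RBOHD are highest in tiny124, and UGT71B6 and AFP3 are highest in TINYOE.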

How the data were processed

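Per the labels, libraries were prepared from 500 ng of RNA with QuantSeq 3′ FWD, read as 50 nt single reads and processed with Lexogen's pipeline 2.2.2 on TAIR10. No source used here names the aligner or annotation. The authors deposited raw counts per gene for 9 libraries, and tables of DESeq2 log2 fold changes with adjusted p-values, without WT replicate 2.

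Counts were filtered (filterByExpr, leaving out 0.296% of counts), TMM-normalised and fitted for all 9 libraries by genotype in edgeR 4.0.16 (R 4.3.3), with 6 residual degrees of freedom and a common biological coefficient of variation of 0.18. Standard errors came from the F statistic. CPM were counts over TMM-scaled effective library sizes. Fits were tested on simulated data. Of genes given a log2 change of 1, 59% to 62% were called in the right direction, and 94% of those given 2. Alternatives were DESeq2 1.42.0, its size factors, other filters, 6 libraries, a replicate block and leaving out each library.

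Every member was reported. Of the further lists, called genes were named, at most 3 per list and comparison. Members and lists were chosen with earlier results of these data known. The reference available was TAIR10.1, used for names (39 of 39 members matched) and for overlaps and neighbours of genes.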

Additional observations from a re-analysis of the deposited data

How the results depend on the processing

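No log2 fold change changed sign among the genes called in at least 1 fit of a comparison. Genes called in none of the fits were not checked for sign. Among ABA members, the call count for tiny124 against WT moved from 0 to 1 (higher) with DESeq2 (PYL5), with no filter on low counts (SNRK2.3) and with a filter at 5 CPM (PYL5), and from 0 to 2 when 1 library was left out. For TINYOE against tiny124 it moved from 3 to 5 with no filter and to 6 with the 6 compared libraries alone. Higher calls there moved from 2 to 4 in both settings, and lower calls from 1 to 2 with DESeq2 and with 6 libraries and to 0 at 5 CPM, where CYP707A3 was not tested. Leaving out 1 library gave 1 to 6 calls (1 to 4 higher, 0 to 2 lower). For TINYOE against WT the count of 5 ranged from 1 to 8 (0 to 7 higher, 1 lower throughout). ABA1 there and SNRK2.8 against tiny124 were called in each of 15 alternatives. The replicate numbers share only a number (correlations of same-numbered deviations -0.298 to 0.349). With a replicate block, 4, 0 and 2 members were called in the 3 comparisons (1 higher in the last). Under the block the calls of SNRK2.2 (adjusted p = 0.0713) and GBF3 (0.0507) against WT, and of ABA2 (0.0608) and AFP3 (0.0514) against tiny124, were lost. Over all genes, leaving out 1 library moved the calls from 2561 to between 1604 and 4032, from 411 to between 167 and 526, and from 1618 to between 946 and 2205. Further genes called higher in TINYOE rose from 3 to 5 with no filter or at 5 CPM, and lower in tiny124 from 0 to 1 with no filter. The causes were not tested. The 8 sparse members had too few counts to test, and a 95% interval inside a 2-fold change was reached by 17, 17 and 20 of the 31, beside 57.1%, 71.3% and 63.8% of all genes.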
